A study of Mus musculus with 17 samples.

Results

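The kinesin genes were all gene names on the array that begin with Kif followed by a digit. There were 38 of them among 35019 names, and 37 were among the 27799 names with a probe well above background on at least 4 arrays; Kif2b was the member left out of the tests. By their known roles 11 members are motors of mitosis, 15 are motors of cargo transport, and the remaining 12 hold other or mixed roles, including Kif4-ps, a pseudogene. The RNA came from intestinal stem cells of LGR5-GFPki mice, in which green fluorescent protein knocked into the Lgr5 locus reports its activity. Every group therefore carries the knock-in. Cells were sorted by flow cytometry as LGR5hi or LGR5lo from mice exposed to 12 Gy of gamma-irradiation or from non-irradiated mice, 3 hours after exposure. The groups were non-irradiated LGR5hi (n = 4), irradiated LGR5hi (n = 4), non-irradiated LGR5lo (n = 5) and irradiated LGR5lo (n = 4) arrays, each with female and male animals. Age, gate limits and pooling of animals are not given in the sources used here, so p-values measure the spread between these arrays, which may be partly technical.

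Kinesins are motor proteins that use ATP to walk along microtubules or to take their ends apart. Mitotic kinesins push the spindle poles apart, move and align chromosomes, and organise the central spindle at which the daughter cells separate; most are transcribed only late in the cell cycle. Transport kinesins carry vesicles, organelles and protein complexes, and several are abundant in neurons and neuroendocrine cells. Crypt stem cells that express Lgr5 cycle continuously, so both classes are of interest in this tissue.

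Values below are log2 signals relative to the 75th percentile of the same array, so a value of 0 lies at that percentile and a difference of 1 corresponds to a 2-fold change. They compare arrays for one gene, and the brightness of different genes' probes is not comparable. A gene is called where the limma fit over all 17 arrays gave a Benjamini-Hochberg adjusted p under 0.05, and errors of differences are standard errors (SE). The 75th percentile signal ranged from 286 to 627 intensity units. Between 58.9% and 73.9% of spots were well above background on 15 arrays, while non-irradiated LGR5lo replicate 2 stood apart at 95.6%, with dim probes raised. Non-irradiated LGR5hi replicate 1 was rebuilt from the deposited series table because its scanner file was damaged, and it has no background flags. All 7 markers of LGR5 stem cells were higher in LGR5hi than in LGR5lo cells in both arms, with Lgr5 itself higher by 3.14 (SE 0.28, adjusted p = 2.87e-06) without and 2.89 (SE 0.29, adjusted p = 1.18e-05) after irradiation; the sort itself was on this locus.

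Irradiation lowered the transcripts of most mitotic motors in LGR5hi cells. Of the 11 mitotic kinesins 9 fell and none rose, with a median log2 difference of -1.70, against -0.02 over all genes tested. Of all 37 kinesins tested 13 fell and 0 rose; over all genes, 13.5% were called, 7.28% as lower and 6.18% as higher. The RNA came from many sorted cells at once, so fewer cells in mitosis and less RNA in each such cell cannot be told apart. Markers of LGR5 stem cells moved with the motors: 5 of 7 fell in LGR5hi cells, with a median of -0.99 over the 7 and Lgr5 at -1.53 (SE 0.29, adjusted p = 0.00188), and 4 of 7 fell in LGR5lo cells, with a median of -0.98. Their part in the result was not tested. For every one of the 9 mitotic motors that fell, the irradiated and the non-irradiated LGR5hi arrays did not overlap. These genes were called on the same arrays, so the lack of overlap is not separate evidence. The share of all genes without overlap was not counted in any comparison, so overlap or its absence only describes the arrays, here and below.

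Kif22, a chromokinesin that pushes chromosome arms toward the spindle equator, had values of 3.91, 3.42, 4.14 and 3.42 in non-irradiated and 1.87, 1.64, 1.40 and 1.76 in irradiated LGR5hi cells. The highest irradiated array lay well below the lowest non-irradiated one. Its level fell by 2.06 (SE 0.25, adjusted p = 4.27e-05), from 3.72 ± 0.36 to 1.67 ± 0.20 (mean ± SD, n = 4 each). Kif11, the plus-end motor that slides antiparallel microtubules apart to separate the spindle poles, read 1.65, 1.15, 2.0 and 1.33 without irradiation. After irradiation it read -0.09, -0.48, -0.30 and -0.25, all below the 75th percentile of their arrays. The difference was -1.81 (SE 0.24, adjusted p = 7.1e-05). Kif2c, which depolymerises microtubules at centromeres and helps to correct wrong attachments, stood at -0.36, -0.81, -0.01 and -0.21 and then at -2.43, -3.03, -2.32 and -1.96. This difference of -2.09 (SE 0.28, adjusted p = 8.63e-05) was repeated by a separate Kif2c probe, which gave -2.09 (SE 0.27, adjusted p = 8.56e-05) in a fit over all probes.

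Kif18a, which dampens chromosome movements at the metaphase plate, went from -0.53, -1.08, 0.12 and -1.09 to -2.32, -2.48, -2.36 and -2.23. The irradiated arrays were closely grouped, with an SD of 0.10 against 0.57 without irradiation. Its difference was -1.70 (SE 0.29, adjusted p = 0.000785). Kif4, a chromokinesin that also shortens the overlap of central spindle microtubules, was at 1.09, 0.64, 1.41 and 0.70 in non-irradiated cells. It was at -0.62, -0.85, -0.81 and -0.41 in irradiated ones, a difference of -1.63 (SE 0.23, adjusted p = 0.000172). Kif4 and Kif22, both chromokinesins, thus fell.

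The motors of cytokinesis fell as well. Kif20a, which brings the chromosomal passenger complex to the central spindle, had 3.14, 2.62, 3.1 and 2.35 and, after irradiation, 0.95, 0.96, 0.41 and 0.67. Kif20b, a motor needed to complete cytokinesis, had 2.77, 2.49, 3.23 and 2.28 and then 1.07, 0.87, 0.92 and 0.92. In both genes all 4 irradiated arrays lay more than 1 log2 unit below the lowest non-irradiated one. The differences were -2.05 (SE 0.29, adjusted p = 0.000139) for Kif20a and -1.75 (SE 0.24, adjusted p = 0.000118) for Kif20b. Kif14, which localises citron kinase to the midbody, was at -0.99, -0.28, -1.62 and -1.08 against -2.04, -1.95, -2.48 and -3.09. It fell by 1.40 (SE 0.29, adjusted p = 0.00331). Kif23, the motor subunit of centralspindlin, had the smallest difference of the 9, -1.24 (SE 0.27, adjusted p = 0.00506), and its other probe gave -1.53 (SE 0.36, adjusted p = 0.00896) in the fit over all probes.

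**Figure D1:**
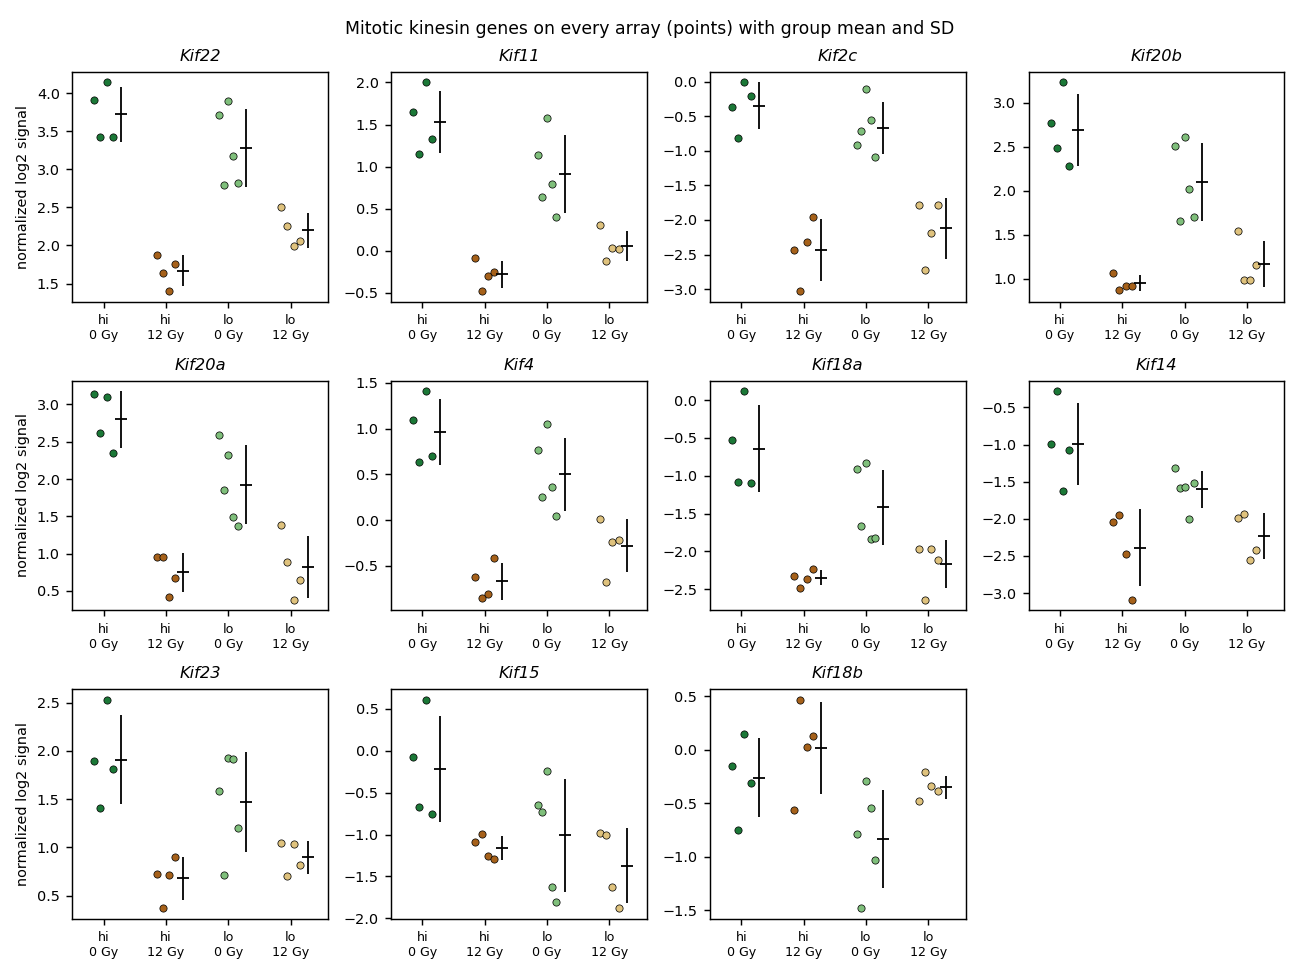
Normalized log2 signal (vertical axes, each with its own range) of the 11 mitotic kinesin genes on every array. Points are arrays of LGR5hi (hi) and LGR5lo (lo) cells at 0 or 12 Gy, and the bars beside them show the group mean and SD. In LGR5hi cells the irradiated arrays lie below all non-irradiated arrays for every gene but Kif18b. The share of all genes with such a separation was not counted. The difference in Kif15 was not called.

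Kif15 and Kif18b were not called. Kif15, which can stand in for Kif11 in keeping the spindle bipolar, had -0.08, -0.67, 0.61 and -0.75 without irradiation and -1.09, -0.99, -1.26 and -1.29 with it. The groups did not overlap, but the non-irradiated arrays were widely spread, and the difference was -0.94 (SE 0.36, adjusted p = 0.109). Kif18b, which shortens astral microtubules, ran the other way at -0.15, -0.75, 0.15 and -0.31 and -0.56, 0.47, 0.03 and 0.13. These overlapped, with a difference of 0.28 (SE 0.26, adjusted p = 0.64). It was the only mitotic motor with an estimate above 0.

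In LGR5lo cells 6 of the same 11 motors fell after irradiation, and none rose. The median difference was -0.78, against -0.13 over all genes. Over all kinesins 9 fell and 0 rose, beside a background of 7.47% of genes called, 3.01% lower and 4.46% higher. Kif2c fell by 1.45 (SE 0.26, adjusted p = 0.00273), from -0.91, -0.71, -0.10, -0.55 and -1.09 to -1.79, -2.72, -2.19 and -1.79, with no overlap. Kif22 fell by 1.08 (SE 0.24, adjusted p = 0.0119), from 3.71, 2.79, 3.90, 3.18 and 2.82 to 2.51, 2.25, 1.99 and 2.06. The lowest non-irradiated arrays of Kif22 lay just above the highest irradiated one. Kif20a fell by 1.10 (SE 0.27, adjusted p = 0.022), and its groups touched, at 2.59, 1.85, 2.32, 1.49 and 1.37 against 1.38, 0.89, 0.38 and 0.64. Kif20b went from 2.51, 1.66, 2.61, 2.02 and 1.70 to 1.54, 0.99, 0.99 and 1.16, a difference of -0.93 (SE 0.23, adjusted p = 0.0209). Kif11 read 1.14, 0.64, 1.58, 0.79 and 0.40 and then 0.31, -0.12, 0.03 and 0.02, a difference of -0.85 (SE 0.22, adjusted p = 0.0304). In Kif20b and Kif11 the groups did not overlap, but the lowest non-irradiated arrays lay close to the highest irradiated one. Kif4, whose call was lost in 21 of 33 alternatives, fell by 0.78 (SE 0.22, adjusted p = 0.0443), from 0.77, 0.25, 1.05, 0.36 and 0.05 to 0.01, -0.68, -0.24 and -0.22. Kif18a had -0.91, -1.67, -0.83, -1.84 and -1.83 and -1.97, -2.64, -1.97 and -2.12, groups that did not overlap but a difference, -0.76 (SE 0.28, adjusted p = 0.116), that was not called. Kif14 at -0.63 (SE 0.27, adjusted p = 0.173), Kif23 at -0.57 (SE 0.26, adjusted p = 0.192) and Kif15 at -0.36 (SE 0.34, adjusted p = 0.503) missed the threshold too. Kif18b was again above 0, at 0.47 (SE 0.25, adjusted p = 0.252).

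The calls in LGR5lo cells depended on the scaling and on single arrays. When arrays were centred on their median instead, 0 kinesins were called, the mitotic median became -0.25 and that of all genes 0.40. The mitotic median relative to all genes was -0.645 under either scaling. This was fixed in advance, because the scalings differ only by a constant for each array. Over all genes the split moved from 1240 higher and 837 lower to 915 and 74. In LGR5hi cells it moved from 1717 higher and 2025 lower to 800 and 436, with 8 of 11 mitotic motors still called lower. Leaving out irradiated LGR5lo replicate 3 left 4 kinesins called, beside 4.24% of all genes, and leaving out replicate 4 left 3, beside 4.54%. A fit of the 2 LGR5lo groups alone called 1, Kif2c at -1.45 (SE 0.27, adjusted p = 0.0222), beside 2.83%. Without non-irradiated LGR5lo replicate 2 the counts were 10 kinesins lower in LGR5lo, Kif23 added, and 15 called in LGR5hi, Kif27 (lower) and Kif5b (higher, 0.50) being added. The shares of all genes called were then 9.13% in LGR5lo, 4.21% as lower, and 18.7% in LGR5hi.

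Arrays of replicates 1 and 2 shared a slide, and those of replicates 3 and 4 another. Within the first slide the mitotic median was -1.60 in LGR5hi and -0.82 in LGR5lo cells, and within the second it was -1.81 and -0.995. With 2 arrays a group, 0 kinesins were called on the first slide in either sort, beside 0.957% of all genes in LGR5hi and 0.155% in LGR5lo cells. On the second, 8 were called in LGR5hi cells, beside 5.64%, and 1 in LGR5lo cells, beside 1.65%. The medians were below 0 on both slides.

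The mean over the 11 mitotic motors shows how the arrays lay. In non-irradiated LGR5hi cells it was 1.12, 0.74, 1.42 and 0.77, and after irradiation -0.41, -0.50, -0.55 and -0.44. In LGR5lo cells it was 0.70, 0.16, 0.94, 0.29 and 0.02 without and -0.04, -0.41, -0.41 and -0.37 with irradiation. Every non-irradiated array lay above 0 and every irradiated one below it. Without irradiation the ranges of the sorts overlapped. In all 4 pairs of arrays with the same replicate number the LGR5hi array lay above its LGR5lo partner without irradiation, and in all 4 it lay below it after irradiation.

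All 11 mitotic motors had a lower estimate for the irradiation effect in LGR5hi than in LGR5lo cells, by a median of 0.82 and between 0.19 and 0.98. The test of this difference called 0 of 37 kinesins with limma, and the lowest adjusted p of a kinesin was 0.585. At an unadjusted p under 0.05 there were 8 kinesins, all of them more negative in LGR5hi, among them 6 mitotic motors; over all genes 6.8% had such a p. Only 0.0396% of all genes were called for this difference. With the replicate number within an arm as a block, 0 kinesins were called, beside 0.198% of all genes with a random and 0.0683% with a fixed block. The fixed block, added after the data were seen and fitted on the 16 arrays with a partner, gave a mitotic median of -0.74, with all 11 below 0, 9 of them at an unadjusted p under 0.05 beside 9.75% of all genes, and a lowest adjusted p of 0.117, that of Kif11 at -0.83 (SE 0.14, adjusted p = 0.117).

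**Figure D2:**
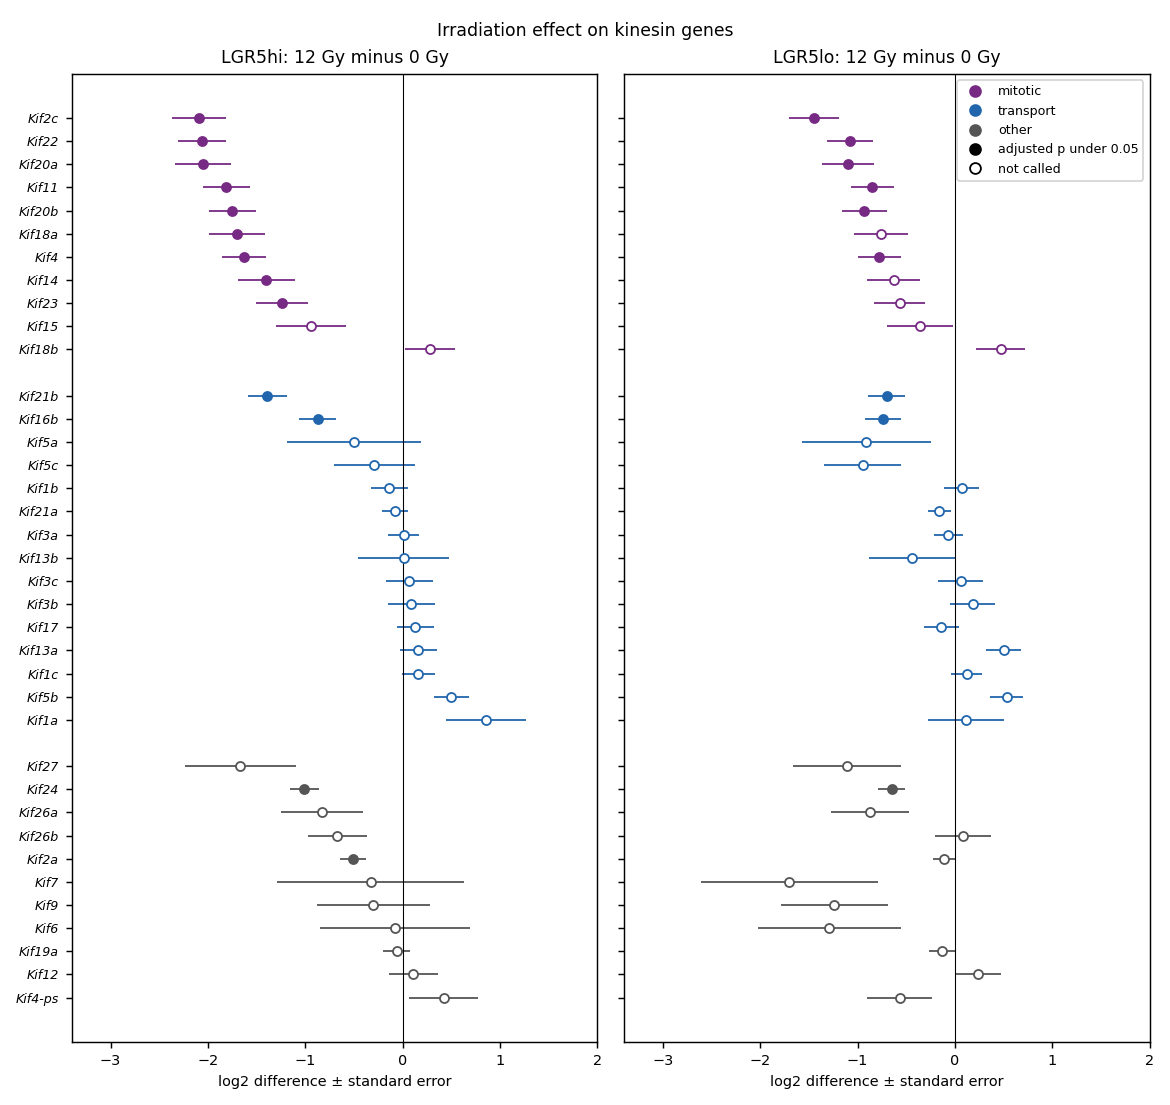
Irradiation effect on each of the 37 kinesin genes tested, as log2 difference ± SE (horizontal axis), in LGR5hi cells (left) and LGR5lo cells (right). Colour gives the role, and filled points have an adjusted p under 0.05. Filled points lie only to the left of 0: 13 in LGR5hi and 9 in LGR5lo cells, and most of them are mitotic motors.

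Genes that work with these motors in mitosis, a list of 16 that also holds kinesins outside the naming rule such as Cenpe, Kifc1 and Kifc5b, mostly fell. In LGR5hi cells 14 of 16 fell and none rose, with a median of -1.53, beside 7.28% of all genes called lower. Nusap1, which bundles spindle microtubules, fell by 2.93 (SE 0.24, adjusted p = 6.3e-07). Aurka, the spindle pole kinase, fell by 2.25 (SE 0.23, adjusted p = 5.5e-06), and its activator Tpx2 fell by 1.90 (SE 0.25, adjusted p = 7.22e-05). Racgap1, which joins Kif23 in centralspindlin, fell by 1.69 (SE 0.21, adjusted p = 4.28e-05). Prc1, the crosslinker on which Kif4 acts, fell by 1.91 (SE 0.25, adjusted p = 7.43e-05), and Cit, the kinase that Kif14 places, fell by 2.10 (SE 0.33, adjusted p = 0.000402). The 2 members that were not called were Kifc1, a minus-end kinesin, and Kifc5b, at 0.34 (SE 0.30, adjusted p = 0.613) and 0.52 (SE 0.35, adjusted p = 0.451). In LGR5lo cells 5 of the 16 fell, namely Racgap1, Tpx2, Aurka, Cit and Nusap1, beside 3.01% of all genes called lower.

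Promoter sequences of the kinesin genes were taken from RefSeq on the build GRCm38.p6, from 250 bases before to 50 after the annotated start, and 31 of the 38 genes had such a window. Cell cycle genes that peak late in the cycle often carry a CHR element close to the start, with CCAAT boxes bound by NF-Y upstream of it. The windows were searched on both strands for the CHR as TTTGAA or TTCGAA and for CCAAT, each motif counted on its own even where matches overlapped. A CHR was present in 9 of the 10 mitotic genes with a window, in 3 of 10 with other roles and in 1 of 11 transport genes, against 21.7% of all 27025 genes with windows of this length. Within 50 bases of the start, a limit chosen after the matches had been seen, it was present in 7 of the 10 mitotic genes and in 6.12% of all genes. CCAAT occurred in 6 of the 10 and in 41.1% of all genes, and both motifs in 6 of the 10 and in 9.65%. These are counts of letters and say nothing of binding.

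The windows of 5 mitotic genes are shown because they set the motifs beside the response. Kif11, Kif22 and Kif23 fell in LGR5hi cells and carry both motifs, Kif18b carries both and did not fall, and Kif18a fell with neither of them in its window. Sequences run 5′ to 3′ along the gene, and capitals mark the CHR and CCAAT matches on either strand, ATTGG and TTCAAA being the reverse-strand forms. The windows are chr19:37376132-37376431 (plus strand) for Kif11, chr7:127042371-127042670 (minus) for Kif22, chr9:61946750-61947049 (minus) for Kif23, chr11:102925075-102925374 (minus) for Kif18b and chr2:109280488-109280787 (plus) for Kif18a.
Kif11: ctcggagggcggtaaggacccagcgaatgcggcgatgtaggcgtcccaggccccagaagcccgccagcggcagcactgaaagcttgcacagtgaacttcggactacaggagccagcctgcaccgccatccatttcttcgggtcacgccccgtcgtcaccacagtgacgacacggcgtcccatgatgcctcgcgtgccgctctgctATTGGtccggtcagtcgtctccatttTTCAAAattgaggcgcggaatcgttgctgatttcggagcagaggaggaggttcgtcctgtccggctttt
Kif22: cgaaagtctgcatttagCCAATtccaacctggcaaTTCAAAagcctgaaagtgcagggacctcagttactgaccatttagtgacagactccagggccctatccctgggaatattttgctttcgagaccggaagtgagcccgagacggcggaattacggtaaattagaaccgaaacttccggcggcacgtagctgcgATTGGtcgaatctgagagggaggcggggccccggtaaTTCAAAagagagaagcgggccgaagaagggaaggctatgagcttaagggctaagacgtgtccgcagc
Kif23: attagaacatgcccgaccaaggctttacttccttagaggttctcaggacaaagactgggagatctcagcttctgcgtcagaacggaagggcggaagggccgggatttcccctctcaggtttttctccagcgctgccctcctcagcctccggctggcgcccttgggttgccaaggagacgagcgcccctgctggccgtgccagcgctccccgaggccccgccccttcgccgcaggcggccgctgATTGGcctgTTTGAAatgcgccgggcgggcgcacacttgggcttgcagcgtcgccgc
Kif18b: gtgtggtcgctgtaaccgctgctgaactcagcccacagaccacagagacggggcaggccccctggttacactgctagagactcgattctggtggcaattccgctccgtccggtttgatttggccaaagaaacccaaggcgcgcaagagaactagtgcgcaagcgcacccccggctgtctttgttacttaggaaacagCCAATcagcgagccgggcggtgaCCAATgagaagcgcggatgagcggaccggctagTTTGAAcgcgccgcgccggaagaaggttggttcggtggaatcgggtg
Kif18a: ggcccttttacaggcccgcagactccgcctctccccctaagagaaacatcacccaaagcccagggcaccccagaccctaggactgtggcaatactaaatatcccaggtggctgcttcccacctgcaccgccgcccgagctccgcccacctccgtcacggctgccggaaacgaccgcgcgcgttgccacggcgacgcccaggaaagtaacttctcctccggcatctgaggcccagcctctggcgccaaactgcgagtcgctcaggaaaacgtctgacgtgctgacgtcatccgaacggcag
In Kif11 the CHR begins 19 bases before the start and the CCAAT box 45 bases before it. In Kif22 the nearer CHR begins at -17 and the nearer CCAAT box at -54, counted from the start. Kif18b has 2 CCAAT boxes, 53 and 30 bases before its start, and a CHR 3 bases after it.

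**Figure D3:**
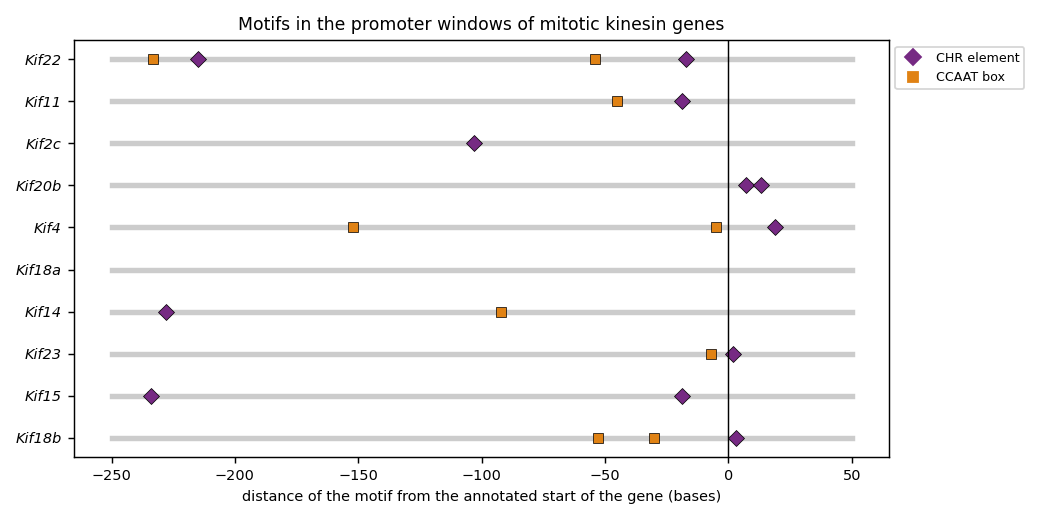
Positions of CHR (diamonds) and CCAAT (squares) matches in the promoter windows of the 10 mitotic kinesin genes with a window, as the distance in bases of the first base of the match from the annotated start (horizontal axis; negative is upstream). Kif18a has no match, and 7 of the 10 genes have a CHR within 50 bases of the start.

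Of the 15 transport motors 2 fell in each sort and none rose, beside 7.28% of all genes called lower in LGR5hi and 3.01% in LGR5lo cells; the median difference was 0.01 in LGR5hi and -0.07 in LGR5lo cells. The members that fell were Kif21b and Kif16b in both sorts. Kif21b, a processive motor that also slows microtubule growth, had 2.55, 2.30, 2.27 and 2.49 in non-irradiated and 1.16, 0.96, 1.08 and 0.84 in irradiated LGR5hi cells. The groups did not overlap, and the difference was -1.39 (SE 0.20, adjusted p = 0.000148). In LGR5lo cells it went from 2.87, 1.85, 2.62, 2.92 and 2.55 to 1.97, 2.0, 1.70 and 1.79, with a low array among the non-irradiated ones, and fell by 0.70 (SE 0.19, adjusted p = 0.0326). Kif16b, which moves early endosomes toward microtubule plus ends, had 0.44, 0.30, 0.52 and 0.40 and then -0.58, -0.35, -0.37 and -0.51 in LGR5hi cells. It fell by 0.87 (SE 0.19, adjusted p = 0.00478) there. In LGR5lo cells it had 0.04, 0.29, -0.24, -0.53 and -0.63 and then -1.03, -1.04, -0.61 and -1.15, overlapping groups with a difference of -0.74 (SE 0.18, adjusted p = 0.0182). Under median centring neither gene was called in LGR5hi cells, at -1.41 (SE 0.45, adjusted p = 0.0892) for Kif21b and -0.89 (SE 0.34, adjusted p = 0.193) for Kif16b.

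The 3 transport motors with the brightest probes were not called in either sort. Kif1c, which carries vesicles between Golgi and endoplasmic reticulum, ran from 2.94 to 3.51 in non-irradiated LGR5hi cells and from 3.33 to 3.72 in irradiated ones, a difference of 0.16 (SE 0.17, adjusted p = 0.689). Its LGR5lo arrays ranged from 2.87 to 3.54 and from 3.27 to 3.53, a difference of 0.12 (SE 0.16, adjusted p = 0.653). The 4 groups of Kif1c overlapped throughout. Kif13a, a motor of recycling endosomes, had 3.1, 3.08, 3.20 and 3.16 and 3.44, 3.33, 3.41 and 2.98 in LGR5hi cells, a difference of 0.16 (SE 0.19, adjusted p = 0.738). In LGR5lo cells it had 3.41, 2.69, 3.22, 3.15 and 3.59 and 3.88, 3.61, 3.95 and 3.40, higher after irradiation on average but not called at 0.50 (SE 0.18, adjusted p = 0.107). Kif1b, a motor for mitochondria and synaptic vesicle precursors, differed by -0.14 (SE 0.19, adjusted p = 0.77) in LGR5hi and by 0.07 (SE 0.18, adjusted p = 0.823) in LGR5lo cells. Kif5b, the broadly expressed conventional kinesin heavy chain, had estimates of 0.50 (SE 0.18, adjusted p = 0.0753) and 0.53 (SE 0.17, adjusted p = 0.0679). Kif3a and Kif3b, which form the kinesin of intraflagellar transport in cilia, lay between -0.07 and 0.18 in both sorts, and neither was called. The other Kif3b probe gave 2.05 (SE 0.72, adjusted p = 0.0828) in LGR5hi and 0.14 (SE 0.68, adjusted p = 0.907) in LGR5lo cells in the fit over all probes. The Kif3b probes thus disagree in LGR5hi cells. The remaining transport motors, Kif1a, Kif3c, Kif5a, Kif5c, Kif13b, Kif17 and Kif21a, were not called for irradiation in either sort. For Kif17 in LGR5hi cells the probe used gave 0.13 (SE 0.19, adjusted p = 0.819) and the other 1.91 (SE 0.73, adjusted p = 0.114) in the fit over all probes.

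A list of 13 genes holds adaptors and light chains that couple kinesins to cargo and the minus-end motors Kifc2 and Kifc3. In LGR5hi cells 2 of the 13 rose and 4 fell, beside 6.18% and 7.28% of all genes. Klc3 rose by 0.98 (SE 0.26, adjusted p = 0.0181), and Trak2, which links kinesin to mitochondria, by 0.59 (SE 0.17, adjusted p = 0.0308). Klc4 fell by 1.34 (SE 0.18, adjusted p = 7.6e-05), the scaffold Mapk8ip1 fell by 0.71 (SE 0.20, adjusted p = 0.0276), and Kifc2 and Kifc3 differed by -1.27 (SE 0.37, adjusted p = 0.0297) and -1.50 (SE 0.25, adjusted p = 0.000565). In LGR5lo cells Trak2 alone was called, higher by 0.58 (SE 0.16, adjusted p = 0.0423). Of the dynein and dynactin list, the motor of the opposite direction, 17 of 18 genes were tested; Nde1, which also serves dynein in mitosis, fell in LGR5hi cells by -1.01 (SE 0.21, adjusted p = 0.00416), and none was called in LGR5lo cells.

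Among the 11 remaining kinesins tested, 2 fell in LGR5hi and 1 in LGR5lo cells, beside 7.28% and 3.01% of all genes called lower. Kif24, which acts with the centriolar protein Cp110 to hold back cilium formation, had -0.77, -0.86, -0.78 and -0.87 and -1.98, -2.06, -1.62 and -1.68 in LGR5hi cells, a difference of -1.01 (SE 0.15, adjusted p = 0.000209). In LGR5lo cells it had -1.08, -0.79, -0.87, -1.27 and -1.09 and -1.62, -1.96, -1.56 and -1.55, a difference of -0.65 (SE 0.14, adjusted p = 0.00975). The groups of Kif24 did not overlap in either sort. Kif2a, a microtubule depolymerase of spindle poles and neurons, fell by 0.51 (SE 0.13, adjusted p = 0.0122) in LGR5hi cells, but its other probes gave -0.20 (SE 0.28, adjusted p = 0.806) and -0.09 (SE 0.17, adjusted p = 0.861), neither of them called in the fit over all probes. Kif27, a ciliary relative of Kif7, was above background on 0 irradiated LGR5hi arrays and on 1 of 3 non-irradiated ones with flags. Its difference was -1.67 (SE 0.57, adjusted p = 0.0695), which was not called with all arrays. The ciliary and axonemal members Kif6, Kif7, Kif9 and Kif19a, the atypical Kif26a, and Kif4-ps were not called in either sort. Kif2b was above background on 1 array.

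Comparison of the sorts showed another set of members. Without irradiation 3 kinesins were higher and 2 lower in LGR5hi than in LGR5lo cells, beside 9.53% of all genes called, 4.61% higher and 4.92% lower. Kif12, a kinesin known from kidney and liver epithelium, had 3.25, 3.03, 2.30 and 2.77 in LGR5hi and 1.70, 1.13, 1.09, 1.11 and 0.88 in LGR5lo cells, a difference of 1.66 (SE 0.23, adjusted p = 0.000237). The lowest LGR5hi array lay above the highest LGR5lo array. Kif26b, a kinesin without motor activity that takes part in Wnt5a and Ror signalling, had -0.39, -0.62, -1.34 and -0.30 against -3.06, -2.26, -3.45, -3.56 and -3.47, a difference of 2.50 (SE 0.29, adjusted p = 3.63e-05). Its probe lies at chr1:180862723-180862782 on the build mm9, and the other Kif26b probe gave -0.43 (SE 0.31, adjusted p = 0.413) in the fit over all probes, so the probes disagree. Kif16b was higher by 0.63 (SE 0.18, adjusted p = 0.037), but this call was lost in 19 of 34 alternative analyses. Without non-irradiated LGR5lo replicate 1 the count of kinesins called was 9, beside 15.2% of all genes, and without replicate 3 it was 8, beside 11.1%. Within the first slide 0 kinesins were called, beside 0.381%, and within the second 1, beside 0.885%.

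Kif1a and Kif5c were lower in LGR5hi cells. Kif1a, which carries dense-core and synaptic vesicle precursors, had -4.58, -6.55, -5.03 and -5.60 in LGR5hi and -2.22, -2.38, -2.92, -3.30 and -2.74 in LGR5lo cells. It was above background on all 5 LGR5lo arrays and on 1 of 3 LGR5hi arrays with flags, and the difference was -2.73 (SE 0.39, adjusted p = 0.000282). Kif5c, a conventional kinesin heavy chain enriched in neurons, had -5.37, -6.93, -7.37 and -7.29 against -4.02, -3.48, -4.71, -3.77 and -4.18. None of the 3 LGR5hi arrays with flags was above background for it and all 5 LGR5lo arrays were; the rebuilt replicate 1, without flags, was the highest LGR5hi array at -5.37. With the background bound Kif5c was at least 5.77-fold higher in LGR5lo cells. The limma test was made on the measured difference and not on the bounded one (adjusted p = 0.000327). The LGR5lo mean behind the bound includes replicate 2 at -3.48, the array with dim probes raised. The bound uses the lowest signal well above background on each array, or the probe's own where that was higher. With normexp background correction Kif5c was not called, at -0.42 (SE 0.21, adjusted p = 0.398). That setting adds an offset of 50 intensity units and leaves out the rebuilt array. The offset draws differences of dim probes toward 0, but its part in the lost call was not tested. The difference in Kif5c therefore depends on the background correction.

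Markers of enteroendocrine, tuft and goblet cells moved with these 2 motors. Of 10 enteroendocrine markers, 9 were lower in LGR5hi cells in each arm, and their summed linear signal, relative to the 75th percentile, ranged from 28.4 to 68.8 in LGR5hi and from 436 to 616 in LGR5lo arrays without irradiation. After irradiation the ranges were 38.1 to 48.8 and 592 to 976. The chromogranin Chga was lower in LGR5hi cells, with log2 differences of -4.02 (SE 0.33, adjusted p = 1.7e-06) without and -4.78 (SE 0.35, adjusted p = 6.45e-07) after irradiation, and was above background on every array with flags. All 6 tuft cell markers were lower in LGR5hi cells without irradiation and 5 of 6 after it, as were 4 of the 5 goblet cell markers tested in both arms. Over all genes 4.92% were called lower without and 4.09% after irradiation. Of the 3 Paneth cell markers tested none was called in either arm, with medians of -0.45 and -0.85. Nor was any of the 8 enterocyte markers, with medians of -0.60 and -0.94. Of the 6 leukocyte markers Coro1a alone was called, lower in LGR5hi cells without irradiation at -1.46 (SE 0.33, adjusted p = 0.00996). Of the 4 stroma and endothelium markers tested Vim alone was called, at -4.08 (SE 0.21, adjusted p = 4.01e-08) and -4.70 (SE 0.22, adjusted p = 2.13e-08). Of 8 neuron and glia markers 4 were tested and Tubb3 alone was called, lower in LGR5hi cells. The part of other cell types in the levels of Kif1a and Kif5c was not tested. Of the 13 adaptors and light chains 3 were lower and 0 higher in LGR5hi cells without irradiation, beside 4.92% of all genes called lower. They were Mapk8ip2 and Mapk8ip1, scaffolds that bind kinesin light chains, at -2.13 (SE 0.23, adjusted p = 2.39e-05) and -0.74 (SE 0.19, adjusted p = 0.0232), and Klc3 at -0.92 (SE 0.25, adjusted p = 0.0273). After irradiation 3 were lower and 0 higher, beside 4.09%. These were Mapk8ip1, Mapk8ip2 and Klc4, the last at -1.15 (SE 0.18, adjusted p = 0.000661).

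**Figure D4:**
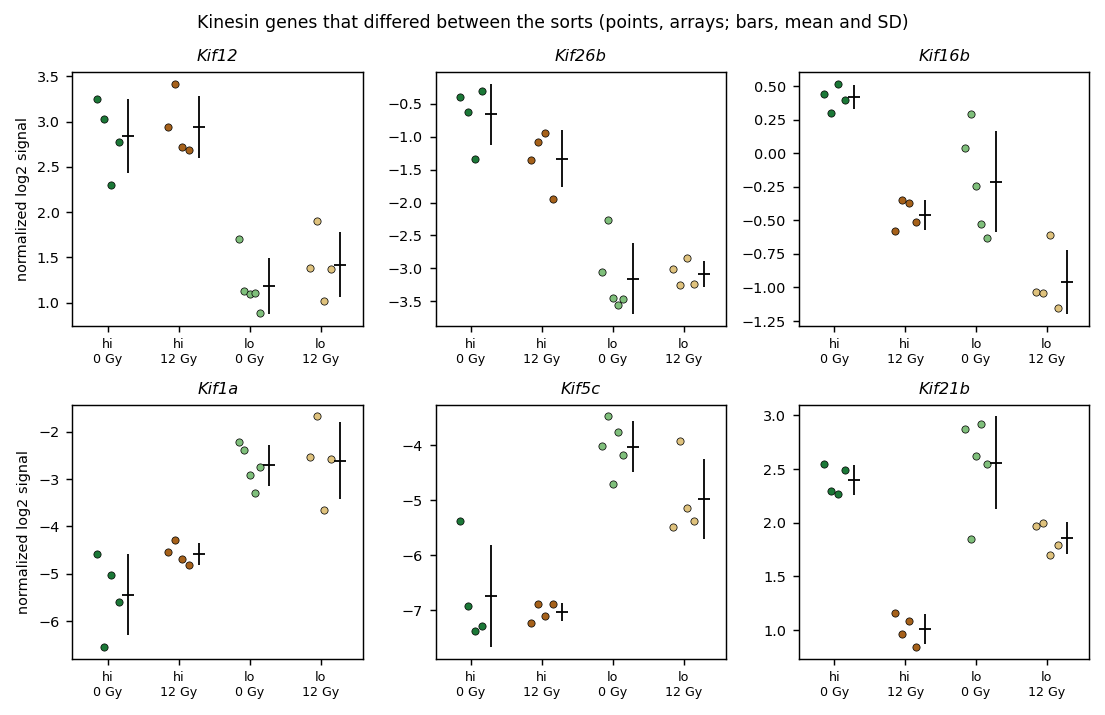
Normalized log2 signal (vertical axes, each with its own range) of the 6 kinesin genes called between the sorts in either arm. Points are arrays of LGR5hi (hi) and LGR5lo (lo) cells at 0 or 12 Gy, and bars show the group mean and SD. Kif12 and Kif26b are higher, and Kif1a and Kif5c lower, in LGR5hi cells at both doses; Kif21b separates the sorts after irradiation.

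After irradiation Kif12, Kif26b, Kif1a and Kif5c were again called in the same directions, and Kif21b joined them, beside 6.3% of genes called, 2.21% higher and 4.09% lower. Kif12 had 2.94, 3.42, 2.72 and 2.69 in LGR5hi and 1.38, 1.90, 1.02 and 1.37 in LGR5lo cells, a difference of 1.53 (SE 0.25, adjusted p = 0.00104). Kif26b had -1.35, -1.08, -0.94 and -1.94 against -3.01, -3.25, -2.84 and -3.24, a difference of 1.76 (SE 0.30, adjusted p = 0.00176). Neither gene was called for irradiation in either sort. Kif1a had -4.55, -4.28, -4.69 and -4.82 against -2.53, -1.68, -3.65 and -2.57, a difference of -1.98 (SE 0.41, adjusted p = 0.00794). Kif5c had -7.23, -6.88, -7.10 and -6.89 against -5.49, -3.92, -5.15 and -5.37, and was above background on none of the 4 LGR5hi arrays. With the bound it was at least 4.08-fold higher in LGR5lo cells. The limma test was again that of the measured difference (adjusted p = 0.00673). With normexp background correction Kif1a and Kif5c lost the call, and their estimates were -0.43 (SE 0.21, adjusted p = 0.226) and 0.18 (SE 0.20, adjusted p = 0.556), the latter with the opposite sign. Both probes are dim. The offset of 50 units in that setting draws differences of dim probes toward 0 but does not reverse them. What caused the lost calls and the changed sign was not tested. The differences of both genes after irradiation therefore depend on the background correction. Kif21b was lower in LGR5hi cells, with a difference of -0.85 (SE 0.20, adjusted p = 0.0153), while without irradiation its difference was -0.16 (SE 0.19, adjusted p = 0.61). Under median centring the calls of Kif12 and Kif21b were lost, at 1.44 (SE 0.40, adjusted p = 0.0661) and -0.93 (SE 0.45, adjusted p = 0.584), and within either slide 0 kinesins were called, beside 1.15% and 0.424% of all genes.

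The mitotic motors did not separate the sorts in the unpaired fit. Without irradiation all 11 had a higher estimate in LGR5hi cells, between 0.32 and 0.88 with a median of 0.60, but none was called; the smallest adjusted p was that of Kif20a, at 0.88 (SE 0.27, adjusted p = 0.0555). After irradiation the median was -0.22. Of their partners Prc1, Ect2, Incenp and Cdca8 were higher in non-irradiated LGR5hi cells, by 0.92, 0.90, 0.85 and 0.74. Arrays of the sorts that shared a replicate number within an arm varied together, and with the number as a random block the non-irradiated sorts differed in 10 kinesins, 7 higher and 3 lower in LGR5hi, beside 15.1% of genes called, 8.11% higher and 6.95% lower. These included Kif20a at 0.84 (SE 0.22, adjusted p = 0.0186), Kif18a at 0.75 (SE 0.23, adjusted p = 0.0357) and Kif11 at 0.59 (SE 0.18, adjusted p = 0.0397). With the number as a fixed block, 2 remained, Kif12 and Kif26b, beside 1.35%. After irradiation the random block called the same 5 as the unpaired fit, beside 10.4%, and the fixed block 9, beside 19.2%; it added Kif22 at -0.54 (SE 0.10, adjusted p = 0.0245), Kif11, Kif13a and Kif16b.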

How the data were processed

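RNA was hybridised to Agilent 1-colour arrays, and the scanner files hold spot intensity values as deposited by the authors, extracted with Agilent Feature Extraction 10.7.3.1 per the submitters' processing notes. The main values are log2 of the processed signal minus the array's 75th percentile, computed here from the deposited intensity. The deposited series table holds log2 values that the authors processed, centred per probe. The damaged scanner file of non-irradiated LGR5hi replicate 1 was replaced by that table plus each probe's baseline from the other arrays. After a constant for the array was removed, this matched 100% of its 13422 readable probes within 0.02 log2. The match covers the pattern over probes and not the level of the array. Probes well above background on at least 4 arrays were kept, and the brightest kept probe stood for a gene. Differences were fitted with limma 3.58.1 in R 4.3.3 over all 17 arrays, with Benjamini-Hochberg adjustment over 27799 gene names and a threshold of 0.05; pandas 2.3.3 and matplotlib 3.10.9 were used for tables and plots. The fit was tested on simulated data. A gene below background in a whole group was given a bound, from the mean of the lowest signals well above background on its arrays. The number of arrays limits the precision.

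The members and lists were chosen with earlier results of these data known. Values on every array were given by rule for the 8 mitotic members with the smallest p for irradiation in LGR5hi, every member called higher after irradiation in either sort (there was none), every member called between the sorts or in the difference of effects, and the 4 members with the highest mean level; others, such as Kif15, Kif18b, Kif23, Kif24 and Kif2a, were singled out after their values were seen. Within an arm, arrays of both sorts with one replicate number varied together (8 pairs, r from 0.121 to 0.457, over 0.1 in each). Across arms r ran from -0.0994 to 0.338. The main fit was unpaired and used group means only. In alternatives the replicate number served as a block within an arm, and in another across arms. Of the alternatives, 34 changed the scaling, background correction, filter, probe rule, block, covariates, arrays or slide.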

Additional observations from a re-analysis of the deposited data

Results flagged for a closer look

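In 148 groups of 4 or 5 arrays, 7 single arrays lay apart from the rest of their group; chance gives about 1 in 20 groups. Of these, 6 were in non-irradiated LGR5lo replicate 2, the array with the most spots above background. There Kif13b was highest at -0.45 (nearest array -3.11), Kif5a at -1.53 (nearest -5.26), Kif6 at 0.34 (nearest -4.04), Kif7 at 0.21 (nearest -4.30) and Kif9 at -0.84 (nearest -3.47), and Kif17 was lowest at -1.13 (nearest -0.28). The other was Kif24 in irradiated LGR5lo replicate 2, lowest at -1.96 (nearest -1.62).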

How the results depend on the processing

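Of 1297 results for single kinesins under the alternatives, 1141 kept direction and side of the threshold, 151 lost the call, 3 gained one and 2 changed sign: Kif15 in LGR5lo under median centring (0.17) and Kif5c after irradiation under normexp (0.18). This agreement is partly fixed in advance, since leaving out an array cannot alter the estimate of a comparison that does not use it. Genes not called in the main fit also count as kept where they stayed uncalled. Counts of kinesins called for irradiation in LGR5hi ranged from 13 to 15 when one array was left out. On slide 1 there were 0, beside 0.957% of all genes called, and on slide 2 there were 8, beside 5.64%. In LGR5lo they ranged from 3 to 10. Median centring gave 0, beside 3.56% of all genes, and 2 without non-irradiated LGR5lo replicate 2, beside 6.45%. Normexp gave 5, beside 5.76%, and a fit of only the LGR5lo groups 1, beside 2.83%. On slide 1 there were 0, beside 0.155%, and on slide 2 there was 1, beside 1.65%. The difference of the effects stayed at 0 throughout. Between the sorts without irradiation the range was 4 to 9. Quantile normalization gave 3, beside 8.52% of all genes, and normexp 3, beside 3.57%. With the replicate number as a random block there were 10, beside 15.1%, and as a fixed block 2, beside 1.35%. On slide 1 there were 0, beside 0.381%, and on slide 2 there was 1, beside 0.885%. After irradiation the range was 4 to 5. Median centring gave 3, beside 2.41% of all genes, normexp 3, beside 5.15%, and the fixed replicate block 9, beside 19.2%. On either slide there were 0, beside 1.15% and 0.424%. The cause was not tested, except that slides hold fewer arrays.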

Other observations

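Sex was compared after the values had been seen, in a limma fit with the replicate number within an arm as a random block. Each group held few arrays of each sex. Non-irradiated LGR5lo males included replicate 2, the array that stood apart with 95.6% of spots well above background. Without irradiation 10 of the 11 mitotic motors had a higher estimate in females than in males, with a median log2 difference of 0.68 and a range from -0.20 to 0.99. None was called by limma (lowest adjusted p = 0.292), and 7 of 37 kinesins had an unadjusted p under 0.05, beside 7.48% of all genes. After irradiation the median was -0.13, 0 kinesins were called and 0 had an unadjusted p under 0.05, beside 1.81%. The irradiation effect on the mitotic motors had a median of -1.79 in females (9 called, beside 7.24% of all genes) and -0.92 in males (7 called, beside 6.23%). By sort it was -2.10 in LGR5hi females (8 called, beside 6.65%) and -1.38 in LGR5hi males (8 called, beside 4.91%). In LGR5lo cells it was -1.41 in females (6 called, beside 2.08%) and -0.44 in males (0 called, beside 4.36%, lowest adjusted p = 0.0854 by limma). In LGR5lo males 13 of 37 kinesins had an unadjusted p under 0.05, beside 26% of all genes. The difference between the sexes in the irradiation effect on the mitotic motors had a median of -0.77. For that difference 0 kinesins were called and 7 had an unadjusted p under 0.05, beside 2.75% of all genes.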
